A study of Mus musculus with 6 samples.

Results

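MHC class I presentation, the display of peptides from inside the cell on its surface, was followed through 10 genes. With earlier results of these data known, the genes were chosen by name for their part in it. They are H2-K1 and H2-D1, which encode the classical heavy chains, H2-T23 and H2-M3, which encode non-classical heavy chains, B2m, which encodes the light chain, Tap1, Tap2, Tapbp and Erap1, which supply, trim and load peptide, and Nlrc5, which encodes a transactivator of class I genes. All 10 were present among the 46078 genes of each table and all 10 were among the 18097 genes tested. The libraries were total RNA of mice in 2 groups of 3, labelled JMML and WT. JMML stands for juvenile myelomonocytic leukemia, a myeloid cancer of early childhood, and WT for wild type. Tissue, age, strain and altered gene are not in the labels for either group, nor is it said there whether the libraries of a group came from separate animals, so p-values measure only the spread between these libraries.

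Class I molecules are made in nearly all nucleated cells. Proteasomes cut proteins of the cytosol into peptides, the TAP transporter carries the peptides into the endoplasmic reticulum, aminopeptidases trim them there, and a loading complex fits them into a heavy chain paired with beta-2-microglobulin. The loaded molecule travels to the surface, where CD8 T cells inspect it and natural killer cells sense its absence. Interferons raise the transcription of most of these genes, and NLRC5 acts at the promoters of the heavy chains, B2m and several of the loading genes.

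The JMML libraries were deeper, with total counts of 91976512 to 108395459, against 47096464 to 61656272 in WT libraries. One count was worth 0.00951 to 0.0192 CPM (counts scaled to a fixed total per library), and every class I gene had 377 or more counts in every library, so depth did not limit their detection. Levels are given as scaled CPM, CPM on a library size adjusted by the trimmed mean of M values (TMM). Sample identifiers end in the letter F for JMML replicates 1 and 2 and in M for the other 4 libraries, and JMML replicate 3 is the only JMML library that shares a letter with WT. The 2 replicates numbered 3 share an identifier prefix that the labels leave unexplained.

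Transcripts of class I presentation were more abundant in JMML than in WT. The 10 genes together took 0.205%, 0.263% and 0.260% of all counts in JMML replicates 1, 2 and 3. In WT replicates 1, 2 and 3 they took 0.148%, 0.153% and 0.151%, so the groups did not overlap. Most of these counts came from H2-D1, B2m and H2-K1, with 63631, 55088 and 28282 of 188195 in JMML replicate 1. Of the 10 genes, 7 were called higher in JMML at an adjusted p under 0.05 in edgeR's quasi-likelihood test, adjusted by Benjamini-Hochberg over all genes tested, and 0 were called lower. Over all genes tested, 12.4% were called higher and 13.8% lower, 26.2% in all. The called genes were the 4 heavy chain genes, B2m, Tap1 and Tap2, and the genes not called were Tapbp, Erap1 and Nlrc5. The number called was 4 without JMML replicate 2, 4 without WT replicate 2 and 4 with scaling by library totals alone, and all 10 log2 fold changes stayed above 0 in each of the 17 alternative settings tried, whichever test was used. In 8 of the 10 genes every JMML library lay above every WT library, a pattern found in 22.9% of all genes tested, with 24.6% in the opposite direction. The median log2 fold change of JMML over WT was 0.80 for the 10 genes, within a range of 0.27 to 1.10, and -0.02 for all genes. TMM scaling itself places most genes near 0. With scaling by library totals alone the medians were 0.62 for the 10 genes and -0.21 for all genes. In bulk RNA, fewer or more cells of a type and less or more RNA per cell cannot be told apart.

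**Figure D1:**
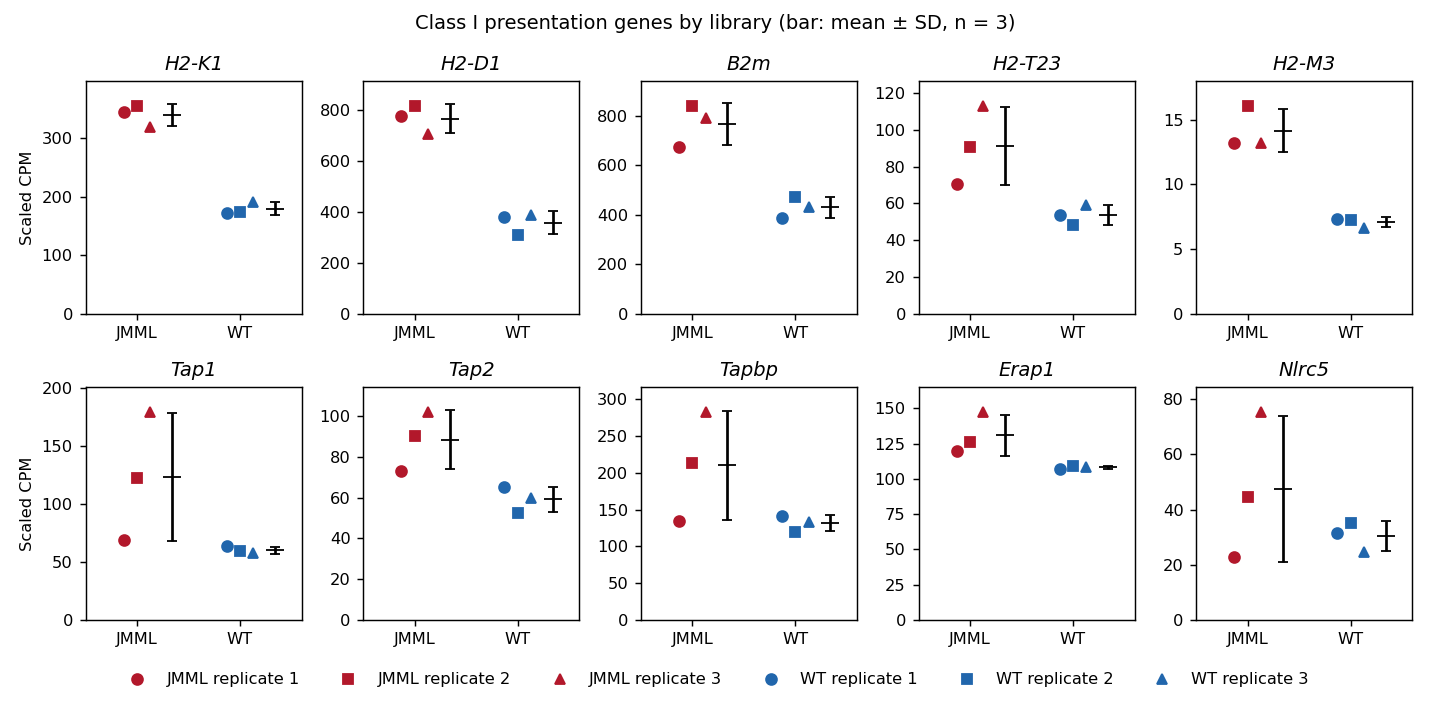
Scaled CPM of each of the 10 genes on linear axes that start at 0, with 1 point per library (3 JMML libraries on the left of each panel, 3 WT libraries on the right) and a bar for the mean ± SD. The groups overlap only for Tapbp and Nlrc5, and the JMML points are spread widest for Nlrc5, Tap1 and Tapbp.

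H2-K1 and H2-D1 encode the classical heavy chains, the polymorphic part of the molecule that holds the peptide. H2-D1 (ENSMUSG00000073411, chr17:35262730-35267499 on the plus strand of GRCm38) had 776, 815 and 703 scaled CPM in JMML libraries, against 379, 307 and 387 in WT libraries. Its log2 fold change was 1.10 ± 0.14 (SE), or 2.14-fold, with an edgeR adjusted p of 0.00359. H2-K1 (ENSMUSG00000061232, chr17:33996017-34000347, minus strand) had 345, 355 and 319.6 scaled CPM in JMML libraries, against 173, 174 and 192 in WT libraries. The lowest JMML library stood well above the highest WT library for both genes, and replicates of a group lay close together. H2-K1 was 1.89-fold higher, with a log2 fold change of 0.92 ± 0.11 (edgeR adjusted p = 0.00308). A larger log2 fold change than that of H2-K1 was found for 6.90% of all genes tested.

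B2m (ENSMUSG00000060802, chr2:122147686-122153083, plus strand) encodes beta-2-microglobulin, the invariant light chain without which most heavy chains do not reach the surface. It had 672, 839.9 and 790.3 scaled CPM in JMML libraries, against 386, 472 and 429.7 in WT libraries. Its log2 fold change was 0.84 ± 0.14, or 1.79-fold, with an edgeR adjusted p of 0.00766. The light chain gene lies on another chromosome than the heavy chain genes, and its groups did not overlap either.

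H2-T23 and H2-M3 encode non-classical heavy chains. H2-T23 (ENSMUSG00000067212, chr17:36029773-36032855, minus strand) encodes Qa-1, which shows leader peptides of other class I chains to natural killer cells. It had 70.4, 90.7 and 113 scaled CPM in JMML libraries, against 53.8, 48.1 and 59.3 in WT libraries. JMML replicate 1 stood nearest to the WT libraries. The log2 fold change was 0.77 ± 0.18, with an edgeR adjusted p of 0.0218. The call was lost without JMML replicate 2 (log2 fold change 0.79), without WT replicate 1 (0.82) and without WT replicate 2 (0.69), and with scaling by library totals alone (0.59).

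H2-M3 (ENSMUSG00000016206, chr17:37270220-37274484, plus strand) encodes a chain that binds N-formylated peptides of bacterial or mitochondrial origin. It was the least abundant heavy chain of the 4, with 13.2, 16.1 and 13.2 scaled CPM in JMML libraries, against 7.35, 7.22 and 6.66 in WT libraries. The groups were far apart at this low level too. The log2 fold change was 1.0 ± 0.16, with an edgeR adjusted p of 0.006. H2-K1, H2-D1, H2-M3 and B2m were called higher in each of the 17 alternative settings.

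Levels of different genes were set side by side per kilobase of annotated exon, with the exons of all annotated transcripts of a gene joined. The transcripts present may be shorter than that, to a degree that differs by gene, so the order is approximate. On this scale B2m stood first in both groups, with 892 ± 100.3 scaled CPM per kb in JMML and 499 ± 50.3 in WT (mean ± SD, n = 3 each). H2-D1 followed with 296.5 ± 22 scaled CPM per kb in JMML and 139 ± 17 in WT, and H2-K1 with 116 ± 6.27 in JMML and 61.1 ± 3.66 in WT. These 3 genes did not overlap one another, or Tapbp below them, in either group. Tapbp had 58.0 ± 20.4 scaled CPM per kb in JMML and 36.3 ± 3.01 in WT. In JMML the neighbours from Tapbp down to Erap1 overlapped one another, in the order Tapbp, H2-T23, Tap2, Tap1 and Erap1. In WT the order was Tapbp, H2-T23, Tap2, Erap1 and Tap1, and only H2-T23 with Tap2 and Tap2 with Erap1 overlapped. H2-M3 and Nlrc5 were lowest, at 9.83 ± 1.15 and 5.60 ± 3.12 scaled CPM per kb in JMML, and 4.92 ± 0.258 and 3.58 ± 0.638 in WT.

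Heavy chain genes share sequence, which affects how reads are assigned. Of the distinct 50-base stretches in annotated transcripts, 12.8% for H2-D1, 9.63% for H2-K1 and 13.6% for H2-T23 also occurred in another gene, against 0.576% for H2-M3 and 0 for B2m. At 100 bases the shares were 3.59% for H2-D1, 0.957% for H2-K1 and 3.15% for H2-T23. How reads with several positions were counted is not given in the sources used here, so levels of H2-D1, H2-K1 and H2-T23 are less certain than those of H2-M3 and B2m. The labels do not give the strain, and reads of alleles that differ from the reference genome may align less well.

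The promoters of 4 called genes are shown because NLRC5 is known to act with RFX, CREB or ATF and NF-Y factors at a compact set of sites upstream of class I genes. The windows are the 250 bases before the RefSeq start on GRCm38.p6, 5' to 3' on the gene's own strand, at chr17:34000348-34000597 (minus) for H2-K1, chr17:35262844-35263093 (plus) for H2-D1, chr17:37269984-37270233 (plus) for H2-M3 and chr2:122147437-122147686 (plus) for B2m. Capitals mark matches, on either strand, to the interferon response core AANNGAAA, the kappaB motif (GGG and TCCC with 3 bases of any kind between), the CRE core TGACG, the CCAAT box (ATTGG on the opposite strand) and the GAS motif TTCNNNGAA. The motifs were chosen after these sequences had been read.
H2-K1: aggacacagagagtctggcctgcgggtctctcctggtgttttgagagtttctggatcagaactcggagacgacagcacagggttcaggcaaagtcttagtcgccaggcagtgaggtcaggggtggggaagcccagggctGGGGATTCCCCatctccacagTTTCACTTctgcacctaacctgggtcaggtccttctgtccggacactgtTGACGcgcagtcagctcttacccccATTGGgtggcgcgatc
H2-D1: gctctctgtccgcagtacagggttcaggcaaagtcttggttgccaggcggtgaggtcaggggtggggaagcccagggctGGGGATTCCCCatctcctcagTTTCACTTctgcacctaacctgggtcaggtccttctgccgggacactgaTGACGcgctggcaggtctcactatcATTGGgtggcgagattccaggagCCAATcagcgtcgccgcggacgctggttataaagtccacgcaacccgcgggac
H2-M3: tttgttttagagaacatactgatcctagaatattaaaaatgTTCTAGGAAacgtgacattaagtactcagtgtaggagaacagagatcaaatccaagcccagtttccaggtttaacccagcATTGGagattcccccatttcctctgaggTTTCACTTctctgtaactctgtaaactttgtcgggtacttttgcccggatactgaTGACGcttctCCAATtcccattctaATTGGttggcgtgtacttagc
B2m: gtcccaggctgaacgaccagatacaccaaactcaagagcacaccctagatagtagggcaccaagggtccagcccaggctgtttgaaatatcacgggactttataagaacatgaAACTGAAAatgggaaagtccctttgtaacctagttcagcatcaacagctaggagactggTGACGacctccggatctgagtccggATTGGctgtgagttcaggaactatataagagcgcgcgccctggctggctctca

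In these 4 windows TGACG was followed by ATTGG with 25 bases from start to start. The TGACG began at position -41 in H2-K1, -101 in H2-D1, -46 in H2-M3 and -78 in B2m, counted back from the RefSeq start. The spaced pair was present in 4 of the 8 class I genes with a window. It was in 26 of 27025 mouse genes, these 4 among them (30 of 32851 promoter windows, 0.0913%). The spacing was taken from these 4 windows, so its presence in them was fixed in advance and tests nothing. An interferon response core lay further upstream in each, beginning at -90 in H2-K1, -150 in H2-D1, -101 in H2-M3 and -137 in B2m, and this core alone was in 21.3% of windows. In H2-K1 and H2-D1 the kappaB motif stood upstream of it, as 2 matches that overlap in 1 palindromic stretch, and 4.77% of windows held that motif. TGACG alone was in 17.8% of windows, CCAAT in 33.8% and the GAS motif in 7.02%. The promoters of H2-K1 and H2-D1 were 87.4% identical over 190 aligned bases, and those of H2-K1 and H2-M3 60.8%. A match of letters is not evidence of binding.

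Among the other windows, H2-T23 held 2 interferon response cores and a CCAAT box but no TGACG. Tap1, which shares its upstream region with the immunoproteasome gene Psmb9, held 1 TGACG and 1 CCAAT. Tapbp held 2 CCAAT boxes, and the Erap1 window had no match to the CRE core, the CCAAT box or the interferon response core.

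Tap1 and Tap2 encode the 2 chains of the peptide transporter. Tap1 (ENSMUSG00000037321, chr17:34187553-34197225, plus strand) had 69.1, 123 and 179.5 scaled CPM in JMML libraries, against 63.5, 59.3 and 57.5 in WT libraries. JMML replicate 1 was just above WT, and JMML replicate 3 was 2.60-fold above JMML replicate 1. Its log2 fold change was 1.04 ± 0.30, with an edgeR adjusted p of 0.0421. It was called in 9 of the 17 alternative settings, and the settings without the call included those without JMML replicate 2 (log2 fold change 1.07), JMML replicate 3 (0.70), WT replicate 1 (1.14), WT replicate 2 (1.04) or WT replicate 3 (1.06), library totals (0.87) and limma-voom (0.94). With JMML replicate 3 as the only JMML library, among those with the letter M, it was 1.62.

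Tap2 (ENSMUSG00000024339, chr17:34203527-34216321, plus strand) had 73.3, 90.2 and 102 scaled CPM in JMML libraries, against 65.1, 52.5 and 59.6 in WT libraries. The groups did not overlap, and the gap between JMML replicate 1 and the highest WT library was small. JMML over WT came to a log2 fold change of 0.58 ± 0.15, with an edgeR adjusted p of 0.0276. The gene was called in 11 of the 17 alternative settings, and the settings without the call included those without JMML replicate 2 (0.58), JMML replicate 3 (0.49), WT replicate 2 (0.51) or WT replicate 3 (0.63) and library totals (0.41).

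Tapbp (ENSMUSG00000024308, chr17:33915899-33929292, plus strand) encodes tapasin, which tethers the empty heavy chain to the transporter. It had 135, 214 and 283 scaled CPM in JMML libraries, against 142, 120.1 and 134 in WT libraries. JMML replicate 1 lay within the WT range and the other two JMML libraries above it. The log2 fold change was 0.67 ± 0.25, with an edgeR adjusted p of 0.0827, which misses the threshold. Without JMML replicate 1 the gene was called, at 0.93, and without JMML replicate 3 its log2 fold change was 0.43. The gene was also called with the DESeq2 Wald test (0.68), with no filter (0.76) and with the identifier letter as a covariate (1.10). With JMML replicate 3 as the only JMML library, among those with the letter M, its log2 fold change was 1.14.

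Erap1 (ENSMUSG00000021583, chr13:74639568-74693201, plus strand) encodes the aminopeptidase that trims peptides to the length a heavy chain accepts. It had 119, 126 and 147 scaled CPM in JMML libraries, against 107, 109 and 108 in WT libraries. The WT libraries were nearly equal and every JMML library was above them. The log2 fold change was 0.27 ± 0.11, with an edgeR adjusted p of 0.104, so the gene was not called. It was called in 1 of the 17 alternative settings, after a trend with exon length was removed (0.39, adjusted p of 0.0375).

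Nlrc5 (ENSMUSG00000074151, chr8:94434356-94527272, plus strand), the transactivator, had 22.6, 44.7 and 75.3 scaled CPM in JMML libraries, against 31.6, 35.1 and 24.5 in WT libraries. JMML replicate 1 was below all WT libraries and the other two JMML libraries were above them. The highest JMML library was 3.33-fold above the lowest, the widest spread of the 10 genes. Its fold change on the log2 scale was 0.65 ± 0.39, with an edgeR adjusted p of 0.251. Without JMML replicate 3 it was 0.17, and without JMML replicate 1 it was 1.0 and called. With JMML replicate 3 as the only JMML library, among those with the letter M, it was 1.35.

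Some exons of these genes overlap those of a neighbour, and the strand setting of the counting is not given in the sources used here. Exons of Erap1 overlap Cast, on the opposite strand, over 11.5% of their length, and Cast had 120 to 162 scaled CPM. Exons of Tap1 overlap Psmb9, on the opposite strand, over 3.87%, and exons of Tapbp overlap Zbtb22, on the same strand, over 4.11%. How far those neighbours add to the counts was not tested.

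**Figure D2:**
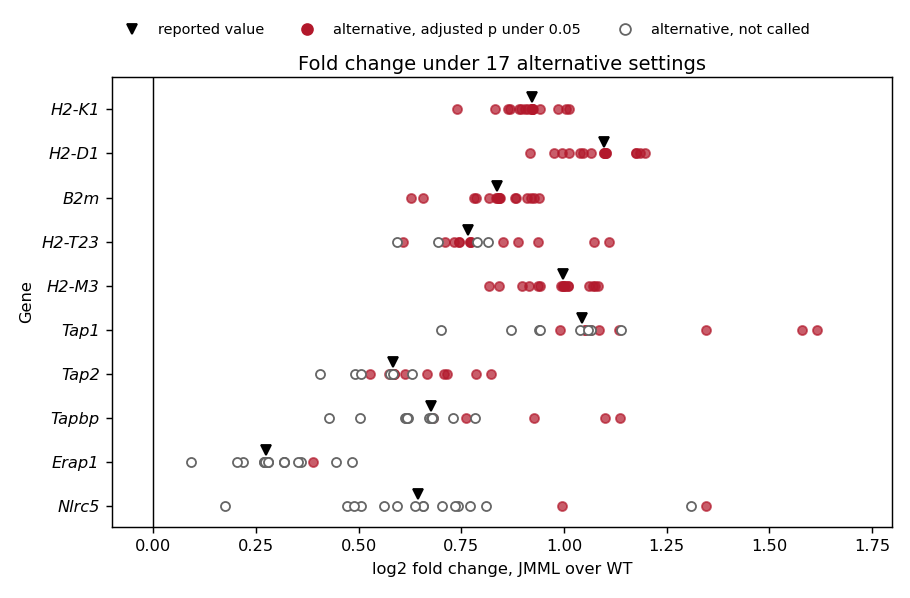
Log2 fold change of JMML over WT for each of the 10 genes, with the reported value as a black triangle and 17 alternative settings as circles, filled where the adjusted p was under 0.05. All values are above 0, and all circles are filled for H2-K1, H2-D1, B2m and H2-M3.

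The 10 genes differed in how even they were across the JMML libraries. Between the highest and the lowest JMML library the fold was 1.11 for H2-K1, 1.16 for H2-D1, 1.2 for H2-M3, 1.23 for Erap1 and 1.25 for B2m. It was 1.39 for Tap2, 1.61 for H2-T23, 2.10 for Tapbp, 2.60 for Tap1 and 3.33 for Nlrc5. JMML replicate 1 was the lowest JMML library for 8 of the 10 genes, while over all genes it was lowest for 31.9%. JMML replicate 3 was the highest for 6 of the 10, against 29.6% of all genes. H2-K1 and H2-D1 went the other way and were lowest in JMML replicate 3.

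That order was also found in several of the lists set beside these genes, not only in those of interferon targets. All 5 loading chaperones were lowest in JMML replicate 1 and highest in JMML replicate 3. All 5 immunoproteasome genes were lowest in JMML replicate 1, and 4 were highest in JMML replicate 3. Mean log2 levels of natural killer, plasmacytoid dendritic, T cell and B cell markers also rose from JMML replicate 1 to 3. Those of class II genes and of monocyte and macrophage markers did not. Type I interferon targets, antiviral genes switched on by interferon alpha and beta, had a mean log2 level relative to the WT mean of -0.40, 1.29 and 2.82 in JMML replicates 1, 2 and 3, so replicate 1 was below WT and replicate 3 far above it. All 14 of these genes were highest in JMML replicate 3 and lowest in JMML replicate 1 among the JMML libraries. Of the 14, 4 were called higher, namely Oas1a, Oas2, Oas3 and Irf7, against 12.4% of all genes tested. The list median log2 fold change was 2.06. With a library left out the count ranged from 0 to 13, with 13 without JMML replicate 1 and 0 without WT replicate 2. It was 1 without any one of JMML replicates 2 and 3 or WT replicates 1 and 3, and 1 by limma-voom. Among libraries with the letter M, with JMML replicate 3 as the only JMML library, the list median was 2.89. Oas1a, a sensor of double-stranded RNA, had 19.7, 59.8 and 106 scaled CPM in JMML libraries, against 10.8, 9.35 and 8.45 in WT libraries, at a log2 fold change of 2.70 ± 0.54 (edgeR adjusted p = 0.0127). Its call was lost without WT replicate 2 (log2 fold change 2.70). Oas2, of the same enzyme family, was called at 1.98 ± 0.51 and kept the call in 10 of the 17 settings. For Nlrc5, Tap1, Tap2, Tapbp, Erap1 and H2-T23 the JMML libraries stood in the same order as for these targets; what part interferon has in the class I values was not tested.

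Interferon gamma targets, guanylate-binding proteins, immunity-related GTPases and chemokines, stood at -0.98, -0.28 and 1.02 in JMML replicates 1, 2 and 3 on the same scale. Of the 10, 0 were called by edgeR, DESeq2 or limma-voom and 0 had an unadjusted p under 0.05, at a list median of 0.28. Among libraries with the letter M, with JMML replicate 3 as the only JMML library, the list median was 1.23. The smallest adjusted p belonged to Cxcl10, a chemokine that draws T cells. Cxcl10 had 0.854, 1.79 and 4.76 scaled CPM in JMML libraries, against 0.908, 1.78 and 0.654 in WT libraries, with a log2 fold change of 1.15 ± 0.66 (edgeR adjusted p = 0.228). Gbp5 and Irgm2, both interferon-inducible GTPases, followed at -0.81 ± 0.47 and 0.82 ± 0.49. Gbp5 was called lower without JMML replicate 3 (-1.54). Among libraries with the letter M, with 1 JMML library, the log2 fold change of Irgm2 was 1.79.

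**Figure D3:**
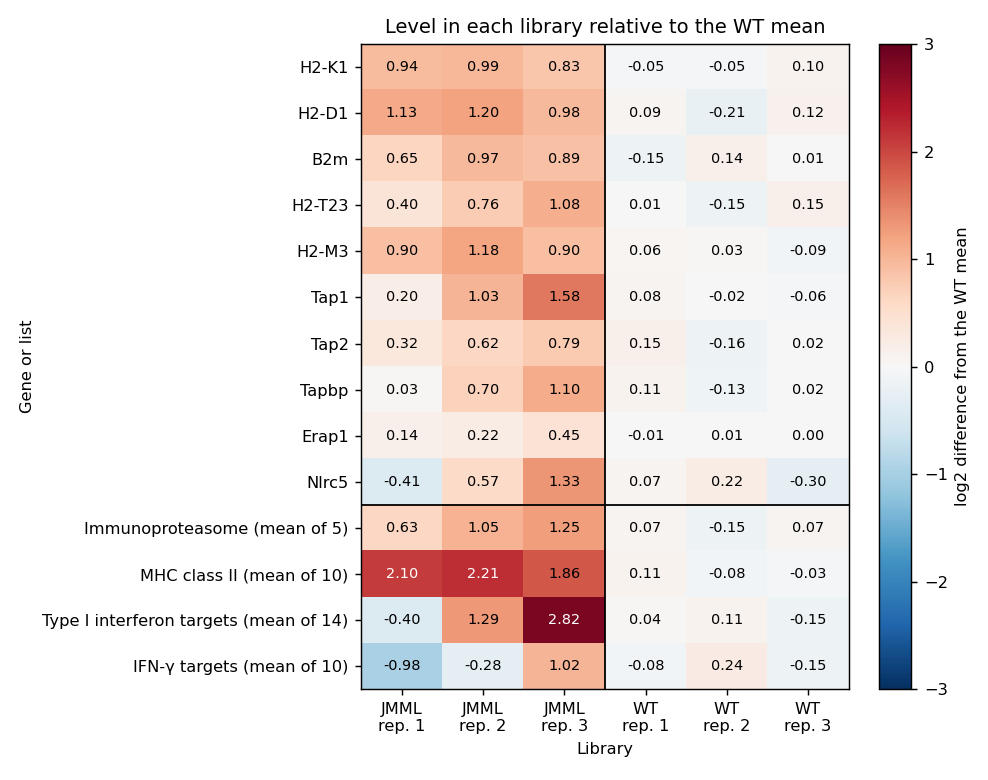
Log2 level of each class I gene (top rows) and mean log2 level of 4 lists (bottom rows) in each library relative to the WT mean, with JMML libraries in the left columns, WT libraries in the right columns and colour running from blue (below the WT mean) to red (above). H2-K1 and H2-D1 differ little among the JMML libraries, while Nlrc5 runs between -0.41 and 1.33 and the type I interferon targets between -0.40 and 2.82.

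Ratios between class I genes, not all of them parts of the same complex, were compared over libraries, 7 pairs in all. In the exact two-sided permutation test used, 3 against 3 libraries cannot go below exact permutation p = 0.1. H2-K1 over H2-D1 had a log2 ratio of -1.17 ± 0.030 in JMML and -0.99 ± 0.16 in WT (SD, n = 3 each), with exact p = 0.1, adjusted 0.35. Tapbp over Tap1 had a log2 ratio of 0.81 ± 0.15 in JMML and 1.13 ± 0.10 in WT, with exact p = 0.1, adjusted 0.35. In both pairs every JMML library was below every WT library, but this design cannot pass the threshold, so neither difference was called. For H2-K1 over H2-D1 the nearest libraries were almost equal, at -1.14 in JMML replicate 3 and -1.13 in WT replicate 1, and without WT replicate 2 the difference of means was -0.097, against -0.18 with all libraries. The other 5 pairs overlapped between groups, with exact p of 0.4 to 0.6 and an adjusted p of 0.6. Among them, H2-K1 over B2m had a log2 ratio of -1.17 ± 0.18 in JMML and -1.25 ± 0.16 in WT. Nlrc5 over H2-K1 had a log2 ratio of -3.0 ± 0.92 in JMML and -2.58 ± 0.35 in WT.

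Other genes, called pathway genes below, were read from 6 lists with 47 symbols, of which 40 passed the filter on low counts. Beside the immunoproteasome, loading chaperones and other class I heavy chains, the lists held class I-like genes, promoter factors and interferon gamma signalling genes. Of those 40, 12 were called higher and 1 lower, with a median log2 fold change of 0.27. Over all genes tested, 12.4% were called higher and 13.8% lower, shares to set beside the counts of each list below. Every JMML library lay above every WT library in 15 of the 40 and below in 5. Over all genes tested these patterns were found in 22.9% and 24.6%. Fewer were called with library totals (6 higher) and without WT replicate 1 (6), WT replicate 2 (4) or JMML replicate 2 (6).

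The immunoproteasome list, the interferon-inducible catalytic subunits and the PA28 activator that favour class I peptides, had 5 of 5 genes called higher, with a median log2 fold change of 0.94. Psmb8 had 126, 166 and 177 scaled CPM in JMML libraries, against 69.8, 58.9 and 70.9 in WT libraries, and its log2 fold change was 1.23 ± 0.15 with an edgeR adjusted p of 0.00357. Psmb9 had 35.6, 39.5 and 61.8 scaled CPM in JMML libraries, against 20.4, 17.5 and 19.2 in WT libraries. Every JMML library was above every WT library for both catalytic subunits. Psmb9 had a log2 fold change of 1.26 ± 0.22 and Psme2, a chain of PA28, one of 0.94 ± 0.17, with adjusted p of 0.00821 and 0.00999. Psmb8 and Psmb9 kept the call in all 17 alternative settings. Without WT replicate 2 the other 3 lost it, with log2 fold changes of 0.78 for Psmb10, 0.67 for Psme1 and 0.85 for Psme2. Psme1, the other PA28 chain, was called in 11 of the 17 settings, and also lost the call without JMML replicate 2 (0.62), JMML replicate 3 (0.69) or WT replicate 1 (0.74).

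Of 5 chaperones of peptide loading, 2 were called higher and 3 were not, with a median log2 fold change of 0.47. Tapbpl, which encodes the peptide editor TAPBPR, had 19.9, 24.3 and 29.0 scaled CPM in JMML libraries, against 13.6, 14 and 16.0 in WT libraries, a log2 fold change of 0.74 ± 0.17 with an edgeR adjusted p of 0.0205. Pdia3, which encodes the ERp57 oxidoreductase of the loading complex, was called at 0.47 ± 0.13 with an adjusted p of 0.0378. Calr, which encodes calreticulin, had 783, 969 and 1343 scaled CPM in JMML libraries, against 699.9, 591 and 708 in WT libraries. Its groups did not overlap, but its log2 fold change of 0.63 ± 0.21 had an adjusted p of 0.0628, and it was called without JMML replicate 1 (0.81). Tapbpl was called in 12 and Pdia3 in 9 of the 17 alternative settings. Both calls were lost without JMML replicate 2 (log2 fold changes 0.76 and 0.51), JMML replicate 3 (0.62 and 0.38), WT replicate 1 (0.75 and 0.53) or WT replicate 2 (0.72 and 0.47), and with library totals (0.57 and 0.29), and that of Pdia3 also without WT replicate 3 (0.50).

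Of 13 other class I heavy chain genes in the Q, T and M regions, 7 passed the filter, 1 was called higher and 0 lower, with a median log2 fold change of 0.29. Over all genes tested, 12.4% were called higher, so 1 of 7 does not set the list apart. The called gene was H2-T22, whose product is a ligand of some gamma delta T cells. It had 36.3, 46.2 and 52.9 scaled CPM in JMML libraries, against 23.9, 20.8 and 25.8 in WT libraries, and a log2 fold change of 0.94 ± 0.17 with an edgeR adjusted p of 0.00941. H2-T22 shares 34.5% of its 50-base stretches with other genes, so its value is less certain, though the call held in all 17 alternative settings. H2-T10 and H2-Q4 had log2 fold changes of 0.40 ± 0.21 and 0.23 ± 0.16 and were called in 0 of them. H2-T24 had 17.5, 32.6 and 71.9 scaled CPM in JMML libraries, against 26.3, 23.4 and 25.3 in WT libraries. Among the JMML libraries replicate 1 was lowest and replicate 3 highest, as for Nlrc5. With JMML replicate 3 as the only JMML library, among those with the letter M, its log2 fold change was 1.56. H2-Q7, a Qa-2 gene, had a log2 fold change of -0.15 ± 0.26 and was not called.

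**Figure D4:**
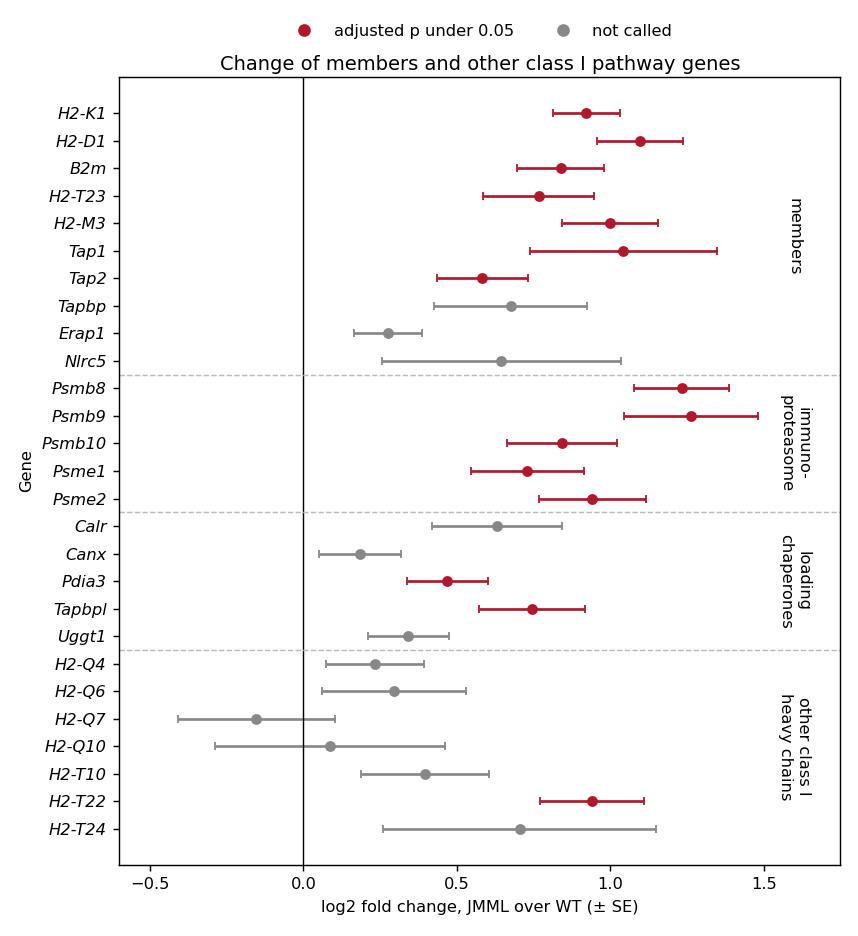
Log2 fold change of JMML over WT with its SE (edgeR, 3 libraries per group) for the 10 class I genes, the immunoproteasome, the loading chaperones and the other class I heavy chains that passed the filter, red where the adjusted p was under 0.05. All 5 immunoproteasome genes are red, and of the 7 other heavy chains only H2-T22 is.

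Class I-like genes, whose products resemble class I chains but hold lipids, metabolites, antibodies or iron regulators, had 1 of 5 called higher, with a median of -0.16. Of all genes tested, 12.4% were called higher. The called gene was Hfe, a regulator of iron uptake, with 33.1, 25.4 and 17.3 scaled CPM in JMML libraries, against 13.9, 14.9 and 14.3 in WT libraries, a log2 fold change of 0.81 ± 0.23 (edgeR adjusted p = 0.0383). Among the JMML libraries it was highest in replicate 1, opposite to Tap1. It was called in 7 of the 17 alternative settings. Among other settings, the call was lost without JMML replicate 1 (0.59) or JMML replicate 2 (0.83) and with limma-voom (0.76). It was also lost without WT replicate 1 (0.84), WT replicate 2 (0.83) or WT replicate 3 (0.85). Among libraries with the letter M, with 1 JMML library, the log2 fold change of Hfe was 0.31. Mr1, which presents vitamin B metabolites, and Cd1d1, which presents lipids, had log2 fold changes of -0.68 ± 0.26 and -0.27 ± 0.14 and were not called. Mr1 was called lower without JMML replicate 1 (-0.90), by DESeq2 (-0.68) and with library totals (-0.87).

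Of 13 genes for factors that act at class I promoters, 1 was called higher, 1 lower and 11 neither, with a median of 0.06. Over all genes tested, 12.4% were called higher and 13.8% lower, so these counts do not set the list apart. Nfya, which encodes the regulatory subunit of the CCAAT-binding factor NF-Y, was lower, at 42.4, 43.0 and 52.7 scaled CPM in JMML libraries, against 109.6, 96.8 and 95.2 in WT libraries. Its log2 fold change was -1.13 ± 0.13 with an edgeR adjusted p of 0.00278, and the call held in all 17 alternative settings. Nfkb1, an NF-kappaB subunit, was called higher at 0.51 ± 0.13 with an adjusted p of 0.0249, and was called in 9 of the 17 alternative settings. Settings without the call included those without JMML replicate 2 (0.47), JMML replicate 3 (0.49), WT replicate 1 (0.55) or WT replicate 2 (0.48). They also included the identifier letter as a covariate (0.60) and library totals (0.33). Among libraries with the letter M, with 1 JMML library, the log2 fold change of Nfkb1 was 0.64. Irf1 and Rfx5 were not called, at 0.16 ± 0.28 and -0.03 ± 0.13.

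Of the interferon gamma pathway itself, 5 of 6 genes were tested and 2 were called higher. They encode the receptor chains. Ifngr2 had 110.1, 96.9 and 85.5 scaled CPM in JMML libraries, against 49.5, 50.5 and 52.2 in WT libraries, and a log2 fold change of 0.94 ± 0.12 with an edgeR adjusted p of 0.00355, called in all 17 alternative settings. Ifngr1 had a log2 fold change of 0.68 ± 0.17 with an adjusted p of 0.0243, and it was called in 9 of the 17 alternative settings. Among other settings, the call was lost without JMML replicate 1 (0.65) or JMML replicate 2 (0.58). It was also lost without any 1 of the WT replicates (0.69, 0.76 and 0.67 without replicates 1, 2 and 3). Among libraries with the letter M, with 1 JMML library, the log2 fold change of Ifngr1 was 0.37. Ifng, the cytokine, did not pass the filter, with 0, 8 and 29 counts in JMML libraries and 6, 4 and 18 in WT libraries. Jak1, a kinase bound to the receptor, was not called, at -0.21 ± 0.10.

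MHC class II genes, which serve presentation of peptides from outside the cell and are normally restricted to professional antigen-presenting cells, had 9 of 10 called higher at a median log2 fold change of 2.27. Ciita, the class II counterpart of Nlrc5, had 40.8, 48.6 and 48.7 scaled CPM in JMML libraries, against 8.11, 7.15 and 8.14 in WT libraries, with a log2 fold change of 2.56 ± 0.14 (edgeR adjusted p = 0.000699). H2-Ab1, a class II chain, and Cd74, the invariant chain, had log2 fold changes of 3.24 ± 0.20 and 2.79 ± 0.20. These 3 genes were called in all 17 alternative settings. Class II levels stood highest in JMML replicate 2 for 6 of the 10 genes and lowest in JMML replicate 3 for 8 of the 10, unlike the order for Tap1, Tapbp and Nlrc5.

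Markers of several cell types differed between the groups beside the class I genes. Their counts stand beside 12.4% called higher and 13.8% called lower over all genes tested. The summed level of 6 monocyte markers was 2351 to 3228 scaled CPM in JMML and 1173 to 1307 in WT, with 5 of 6 called higher. The sum of 8 conventional dendritic cell markers was 476 to 664 scaled CPM in JMML and 243 to 282 in WT, with 7 of 8 called higher. Neutrophil markers summed to 20235.6 to 29272 scaled CPM in JMML and 11922 to 20289 in WT, with 4 of 9 called higher (2 to 6 with a library left out). All 8 B cell markers were called lower, at 10.1 to 16.2 scaled CPM in sum in JMML and 128 to 497 in WT, as were all 8 T cell markers, at 12.7 to 19.9 in JMML and 42.1 to 65.8 in WT. With a library left out, 7 to 8 of the B cell and 4 to 7 of the T cell markers were called lower. Of 6 natural killer cell markers, 0 were called by edgeR or limma-voom, and 1 was higher by DESeq2 and at an unadjusted p under 0.05. With a library left out, 0 to 3 of them were called higher. Their sums were 49.9 to 106 scaled CPM in JMML and 54.3 to 58.9 in WT. Megakaryocyte markers (6 of 6) and endothelial or stromal markers (5 of 5) were called lower, as were 5 of 8 erythroid markers (1 to 8 with a library left out). Mast cell or basophil markers (3 of 4, 1 to 3 with a library left out) and stem cell markers (4 of 5) were also called lower. Of 6 macrophage markers 1 was called higher and 1 lower, at a median log2 fold change of -0.79. Of 4 plasmacytoid dendritic cell markers 1 was called lower and 0 higher, at a median of -0.67. The part of these differences in cell makeup in the class I result was not tested.

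Outside the lists, the protein-coding genes whose log2 profile over the 6 libraries was closest to the mean profile of the 10 class I genes were Mgl2, Rps6ka1, Lbp, Mapkapk3 and Gpr157, out of 10356 genes compared. Their root mean square differences from that profile were 0.0578 to 0.0744 on the log2 scale. Among the 10 themselves H2-T23 was the closest, at 0.0919, and Nlrc5 the farthest, at 0.393. The 5 genes were picked as the closest of 10356, so their smaller values do not show a closer tie to class I. Mgl2, a C-type lectin gene, had 11.7, 13.6 and 16.3 scaled CPM in JMML libraries, against 8.54, 8.14 and 8.45 in WT libraries.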

How the data were processed

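Total RNA of 3 JMML and 3 WT mouse samples was sequenced from stranded, ribosomal RNA-depleted libraries, per the labels' protocols. The authors deposited raw, unnormalized counts per Ensembl gene. The build was GRCm38, per the submitters' processing notes, and the named tools, whose roles are not stated, include DESeq2 1.22.2 in R 3.5.0, StringTie 1.3.3b, STAR 2.5.3a, bcl2fastq 2.18.0.12 and Picard 2.0.1. Not given in the sources used here are the counter, its strand setting and its treatment of mates and of reads with several positions. Between 51.6% and 58.8% of counts of 1 to 20 were even, so both mates may have been counted, and counts then overstate independent fragments.

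Of 46078 identifiers, 45229 (98.2%) matched GENCODE vM21, the source of symbols, positions and exon lengths, and 849 did not. All library pairs differed beyond sampling noise (lowest chi-square over degrees of freedom, 65.8). The quasi-likelihood F test of edgeR 4.0.16 (R 4.3.3) was applied to counts with TMM scaling and the filterByExpr filter, in 1 fit over all 18097 genes kept, and genes were called at a Benjamini-Hochberg adjusted p under 0.05. Standard errors were derived from the log2 fold change and its F statistic, as |log2 fold change| over the root of F. The common biological coefficient of variation was 29.4%. Log2 profiles used a pseudocount of 0.25 CPM. The test was run on simulated data first.

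The class I genes, lists and motifs were chosen with earlier results of these data known. Named were all 10 class I genes, the 3 genes of each list with the smallest p, and the 5 genes with the closest profile (mean log2 CPM of 2 or more). Other named genes were chosen after their values were seen. A gene that the rule names is not reported here. Same-numbered libraries did not deviate together (correlations of -0.20, 0.05 and -0.14), so numbers were not taken to pair them. Alternative settings took library totals or DESeq2 size factors for scaling, DESeq2 1.42.0 and limma-voom (limma 3.58.1) as tests, no filter or 50 counts in 3 libraries, the letter of the identifier as a covariate, the libraries with letter M alone, the replicate block, removal of the exon length trend (loess, span 0.5), thinning to 47096464 counts, and each library left out. Promoter windows came from RefSeq on GRCm38.p6, which matched 8 of the 10 genes. Tables and figures were made in Python 3.11.15 with matplotlib 3.10.9 and pandas 2.3.3.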

Additional observations from a re-analysis of the deposited data

How the results depend on the processing

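All 10 class I genes kept a positive log2 fold change in the 17 alternatives. With the replicate block Tap1 (0.94) and Tap2 (0.58) were not called. Of the 10 genes, 7 were called higher as reported, 4 with library totals, 5 with the replicate block and 4 to 9 when a library was left out (4 without JMML replicate 2 or WT replicate 2, 9 without JMML replicate 1). Pathway genes called higher numbered 12 as reported, 6 with library totals, 8 with the replicate block and 4 to 12 with a library left out. Of all genes, 4737 were called as reported, 2809 with the replicate block, 2219 with the identifier letter, 2310 with only the letter M, and 2203 to 4003 with a library left out. With the letter as a covariate the comparison rests on JMML replicate 3 against WT. Scaling by library totals moved the median log2 fold change of all genes by -0.18 and the share of calls that were higher to 27%, against 47.4% as reported. The log2 ratio difference of H2-K1 over B2m, 0.09 as reported, was -0.051 with only the letter M and -0.0185 to 0.15 with a library left out (-0.0088 without WT replicate 2). That of H2-T23 over H2-K1, -0.18 as reported, was 0.24 with only the letter M and -0.39 to 0.0092 with a library left out. That of Nlrc5 over H2-K1, -0.43 as reported, was 0.49 with only the letter M and -0.89 to 0.038 with a library left out. The cause was not tested.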
